A study of Mus musculus with 12 samples.

Results

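The transcripts described here are those of the cytochrome P450 genes in the livers of mice on a steatohepatitis diet. Every row of the deposited table whose gene name is Cyp followed by a digit was taken, leaving out pseudogene names. The rule found 31 genes among the 3717 rows of the table, and all 31 are annotated as protein coding, as are 2977 rows in all. Of them 26 passed the filter on low counts and 5 did not (Cyp4a12a, Cyp2a5, Cyp2c38, Cyp2j6 and Cyp17a1). The animals were wild-type male C57BL/6 mice. One group was fed an HFCF diet, a short form with no key in the labels, for 3 months and was 6 months old. Another was fed HFCF for 1 month and was 3 months old. Their counterparts were fed normal chow for 3 months (6 months old) or for 1 month (3 months old). Each of the 4 groups had 3 libraries, described by the design text as biological replicates. Age and time on the diet moved together and cannot be told apart.

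Cytochrome P450 enzymes are haem proteins that insert oxygen into small molecules, most of them anchored in the endoplasmic reticulum and fed with electrons by cytochrome P450 reductase. In liver the first families oxidize drugs, toxins and steroids, the fourth family hydroxylates fatty acids and eicosanoids, and a few other members turn cholesterol into bile acids. Many of their genes are controlled by nuclear receptors: the pregnane X receptor and the constitutive androstane receptor for drug oxidation, PPAR alpha for fatty acid hydroxylation, and the farnesoid X receptor and its partners for bile acid synthesis. By these roles 21 of the genes belong to families 1 to 3, 5 to family 4 and 5 to sterol, bile acid and steroid synthesis.

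Messenger RNA made up a small share of these libraries. Protein-coding rows, without those whose exons overlap a small RNA row of the same table, took 32330 to 105301 counts per library, which was 1.03% to 2.01% of the table total. The sources differ on the library kit, as given below. Whether these counts follow the level of whole transcripts, within or across genes, was not tested. Levels are given as the library's count scaled to a common total of these protein-coding counts after TMM scaling (TMM-scaled CPM), and as CPM per kb of gene model where genes are compared with one another. A gene is said to have risen or fallen where edgeR's quasi-likelihood test gave a Benjamini-Hochberg adjusted p under 0.05 over the 1604 rows tested. All 16 hepatocyte markers looked for had a row, and their summed level was 104637 to 164245 CPM, as the label of liver requires. In bulk tissue, fewer hepatocytes and less RNA per hepatocyte cannot be told apart.

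Cytochrome P450 genes took 2.20% ± 0.305 of protein-coding counts in HFCF livers and 2.48% ± 0.222 in chow livers at 3 months (SD, n = 3 each). At 1 month the shares were 2.58% ± 0.215 in HFCF livers and 2.56% ± 0.149 in chow livers. The ranges of the diets overlapped at both times. A few genes made up most of the signal. Cyp2e1, which oxidizes ethanol and other small molecules, held 31.2% of the counts of the 31 genes, Cyp4a14, a fatty acid hydroxylase, 20.7%, and Cyp3a11, the principal drug-oxidizing CYP3A enzyme of mouse liver, 7.03%.

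Per unit of length, Cyp2e1 also stood first, at 4221 ± 563 CPM per kb over the 12 libraries (SD), with 3074 CPM per kb in its lowest library. Cyp4a14 came next at 1905 ± 866 CPM per kb and reached 3028 CPM per kb in its highest library, so these neighbours did not overlap. Cyp3a11 averaged 769 ± 325 CPM per kb. These ranks pool groups that differ. In HFCF livers at 3 months Cyp4a14 (874 ± 469 CPM per kb) and Cyp3a11 (865 ± 227) did not differ beyond their spread, and in HFCF livers at 1 month Cyp3a11 (324 ± 204) stood below Cyp2d9 (627 ± 109), Cyp4a10 (535 ± 31.5), Cyp2f2 (469 ± 63.6) and Cyp8b1 (374 ± 57.3) by its mean. Over all libraries Cyp3a11 was followed by Cyp2d9, a steroid hydroxylase of male mouse liver, at 549 ± 179 CPM per kb, and by Cyp2f2, which oxidizes naphthalene, at 476 ± 123 CPM per kb. Cyp4a10, Cyp8b1 and Cyp3a25 lay at 415 ± 176, 385 ± 91.8 and 357 ± 111 CPM per kb. The gap between the means of Cyp3a11 and Cyp2d9 was within the SD of Cyp3a11 but not that of Cyp2d9. From Cyp2d9 to Cyp3a25 each gene's mean lay within 1 SD of its neighbour's. The order from Cyp3a11 to Cyp3a25 is therefore not firm. At the low end Cyp17a1, a steroid hydroxylase best known from gonads, averaged 18.3 ± 26.5 CPM per kb.

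**Figure D1:**
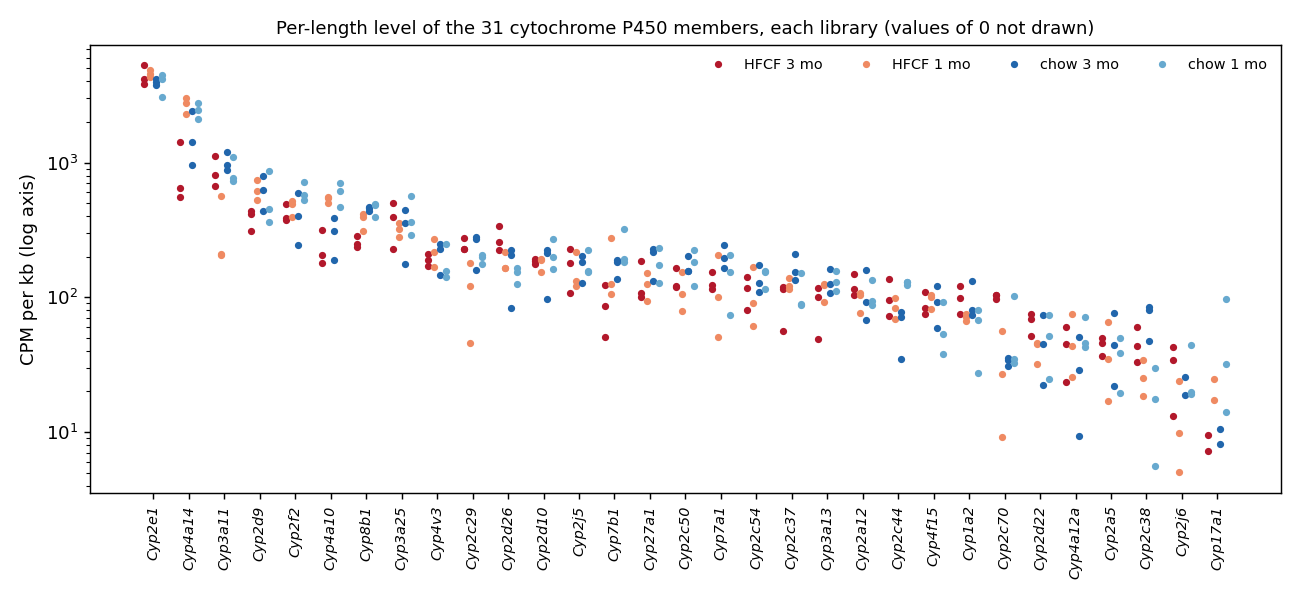
Level of the 31 cytochrome P450 genes in each of the 12 libraries, in CPM per kb of gene model on a log axis, ordered by the mean over all libraries. Cyp2e1 lies above all other genes, at 3074 to 5298 CPM per kb, and Cyp4a14 is next by its mean over all libraries, at 557 to 3028 CPM per kb.

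Among the drug-oxidizing genes, Cyp3a11 fell on HFCF after 1 month. Cyp3a11 lies on the minus strand of chromosome 5 (mm10, 145854426 to 145879964), 97.2 kb from Cyp3a25, and is a classic target of the pregnane X receptor. The RefSeq promoter sequence is shown here because Cyp3a11 is the only gene of the family that passed between the diets at a single time. Capitals mark TATAAA from 234 to 229 bases before the RefSeq start, and a pair of hexamers of the kind that nuclear receptors can bind. One is AGGTCA, from 162 to 157 bases before the start. The other is AGTTCA on the opposite strand, from 142 to 137 bases before the start, which reads in the line below as its reverse complement. The stretch runs 5′ to 3′ along the minus strand (GRCm38.p6, chr5:145879965-145880104) and ends 111 bases before the RefSeq start, where the gene model of the table begins.

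Cyp3a11: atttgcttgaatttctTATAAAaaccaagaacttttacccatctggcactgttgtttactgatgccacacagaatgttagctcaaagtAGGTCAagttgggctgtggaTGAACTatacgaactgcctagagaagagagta

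At 1 month Cyp3a11 measured 479, 490 and 1313 CPM in HFCF livers, against 1721, 2600 and 1794 CPM in chow livers. Every HFCF library lay below every chow library, and HFCF replicate 3 lay well above the other HFCF libraries. The gene was 2.57-fold lower in HFCF livers (log2 fold change -1.36 ± 0.29 SE, edgeR adjusted p = 0.00781). This call held in all 23 alternatives of scaling, filter, tool and left-out library, with log2 fold changes of -2.06 to -1.11 and adjusted p of 5.42e-08 to 0.0397. The value of -2.06 came without HFCF replicate 3. At 3 months Cyp3a11 measured 1569, 1903 and 2613 CPM in HFCF livers and 2823, 2244 and 2069 CPM in chow livers. These ranges overlapped (-0.21 ± 0.27, edgeR adjusted p = 0.812). Averaged over both times the gene was lower in HFCF livers (-0.79 ± 0.20, edgeR adjusted p = 0.015), and this call was lost only without chow replicate 3 at 1 month (adjusted p = 0.0515). Of the 30-base windows in Cyp3a11 transcripts, 16.3% also occur in other genes, mainly Cyp3a41a, Cyp3a44 and Cyp3a41b, so part of its counts may come from these relatives.

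Of the 26 genes tested, 1 passed by edgeR at 1 month, Cyp3a11, where 1.81% of all 1604 rows passed and 0.686% passed as lower. At an unadjusted p under 0.05 there were 3 of 26 genes, against 12.0% of all rows. DESeq2 and limma-voom each called 1. For 3 of 26 genes, Cyp3a11, Cyp2f2 and Cyp2c44, every HFCF library was lower than every chow library, as for 6.61% of all rows, and 14.2% of all rows did not overlap in either direction. The median log2 fold change of the 26 genes was -0.22, against 0.00 over all rows, and 18 of 26 were negative, against 49.4% of all rows. The median was -0.00476 without chow replicate 1 and -0.13 without HFCF replicate 2.

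**Figure D2:**
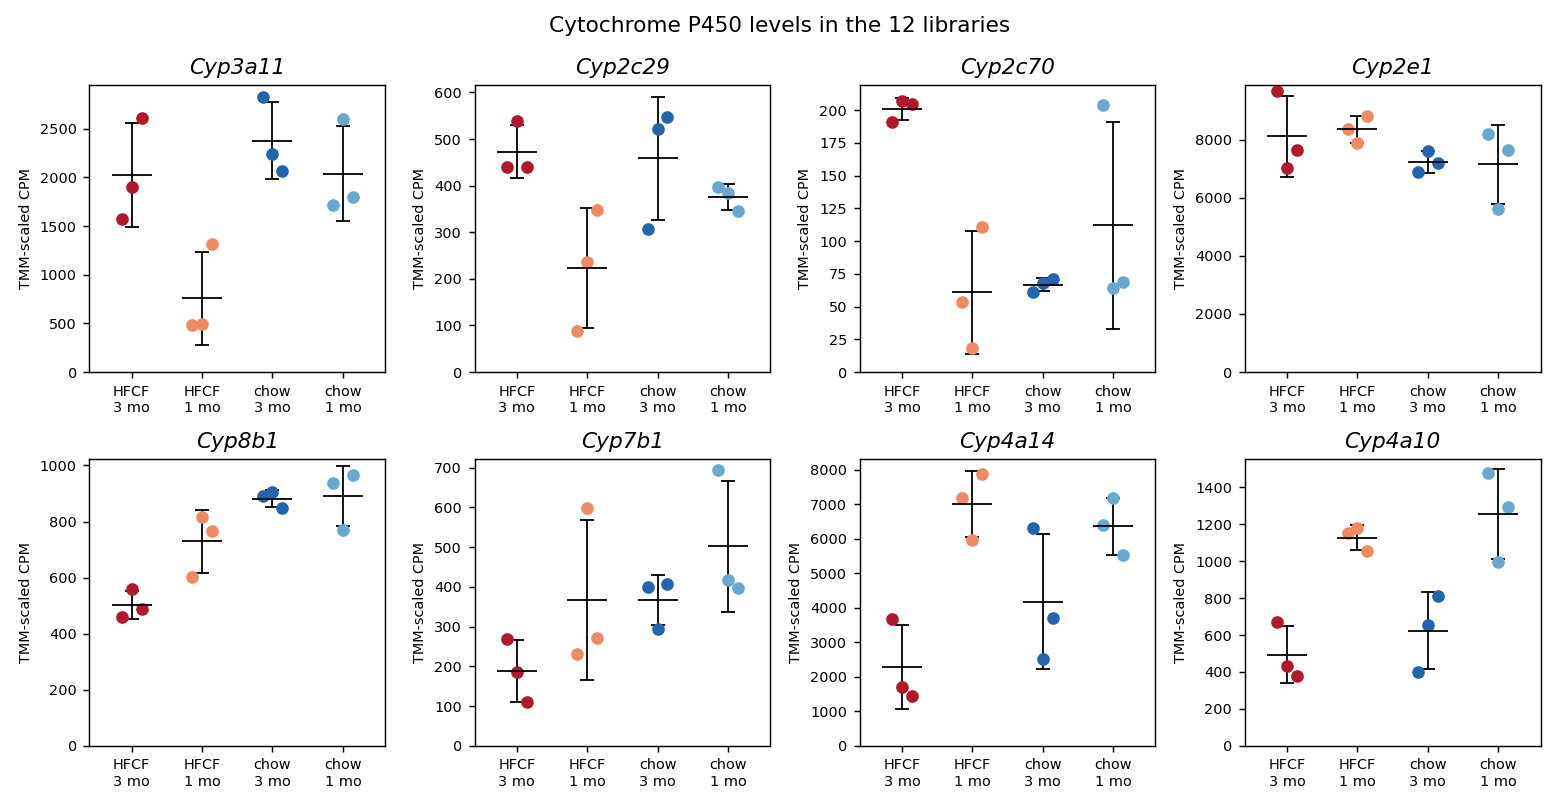
Levels of 8 cytochrome P450 genes in TMM-scaled CPM, with 1 point per library and bars for the mean ± SD of 3 libraries in each group. Cyp3a11 is lowest in the HFCF livers at 1 month (479 to 1313 CPM), Cyp8b1 in the HFCF livers at 3 months (459 to 559 CPM), and Cyp4a10 is at 378 to 814 CPM in the 6 livers at 3 months.

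None of the other members of families 1 to 3 passed in a comparison of diets. Cyp2c29, an epoxygenase that is inducible through the constitutive androstane receptor, came nearest in size to Cyp3a11 at 1 month among those with an unadjusted p under 0.05. It measured 88.7, 236 and 347 CPM in HFCF livers, against 397, 385 and 345 CPM in chow livers. The lower HFCF libraries lay below all chow libraries, but HFCF replicate 3 reached the lowest chow library, and the difference did not pass (-0.68 ± 0.31, edgeR adjusted p = 0.331). At 3 months Cyp2c29 measured 440, 538 and 441 CPM in HFCF livers and 307, 521 and 548 CPM in chow livers (-0.01 ± 0.30, adjusted p = 0.994 by edgeR). An annotated pseudogene, Cyp2c53-ps, shares exon positions with Cyp2c29 on the same strand, so counts of Cyp2c29 may include reads of Cyp2c53-ps. Cyp2c50, another epoxygenase, measured 230, 308 and 446 CPM in HFCF livers and 652, 353 and 535 CPM in chow livers at 1 month. The ranges overlapped (-0.63 ± 0.28, edgeR adjusted p = 0.313). At 3 months it measured 478, 352 and 346 CPM in HFCF livers and 460, 589 and 460 CPM in chow livers, and the value averaged over both times was -0.50 ± 0.20 (edgeR adjusted p = 0.178). Other genes hold 29.9% of the 30-base windows of Cyp2c50, mainly Cyp2c37 and Cyp2c54. For Cyp2c29 the share was 11.1%, mainly in Cyp2c53-ps, Cyp2c39 and Cyp2c38. Part of the counts of each gene may come from its own relatives.

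Cyp2c44, also an epoxygenase, lay at 195, 163 and 136 CPM in HFCF livers and at 255, 257 and 241 CPM in chow livers at 1 month. The libraries did not overlap, but 9 to 25 counts stood behind each value and the difference did not pass (-0.63 ± 0.35, edgeR adjusted p = 0.489). At 3 months it measured 268, 186 and 142 CPM in HFCF livers and 153, 68.0 and 141 CPM in chow livers, with overlap (0.69 ± 0.44, edgeR adjusted p = 0.505). Cyp2f2 measured 993, 1052 and 805 CPM in HFCF livers and 1446, 1156 and 1069 CPM in chow livers at 1 month, without overlap (-0.39 ± 0.23, edgeR adjusted p = 0.544). An annotated antisense gene, Gm15883, shares exon positions with Cyp2f2, and the use of strand in counting is not given, so reads of the pair cannot be told apart.

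Cyp2e1, the most abundant member, did not pass in any comparison. It measured 9679, 7034 and 7633 CPM in HFCF livers and 6874, 7616 and 7181 CPM in chow livers at 3 months (0.17 ± 0.18, edgeR adjusted p = 0.758). At 1 month it measured 8369, 7887 and 8818 CPM in HFCF livers and 8199, 5617 and 7642 CPM in chow livers (0.22 ± 0.18, edgeR adjusted p = 0.722). The ranges overlapped at both times, and the standard errors were among the smallest of the family, with 224 to 805 counts per library. Cyp1a2, which oxidizes aromatic amines and caffeine, rested on only 3 to 15 counts per library. It measured 230, 186 and 142 CPM in HFCF livers and 153, 249 and 141 CPM in chow livers at 3 months (0.02 ± 0.45, edgeR adjusted p = 0.991). Cyp1a2 measured 142, 127 and 136 CPM in HFCF livers and 153, 128 and 51.7 CPM in chow livers at 1 month (0.20 ± 0.45, edgeR adjusted p = 0.924). The ranges overlapped at both times.

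At 3 months 0 of the 26 genes passed by edgeR, where 2.31% of all rows did. There were 7 of 26 at an unadjusted p under 0.05, against 14.6% of all rows. DESeq2 called 1, Cyp8b1, and limma-voom called 0. The diets were free of overlap for 7 genes, against 20.3% of all rows. All HFCF libraries were higher for 2 of them, Cyp2c70 and Cyp2d26, against 9.6% of all rows. They were lower for 5, Cyp2c37, Cyp2d9, Cyp7a1, Cyp7b1 and Cyp8b1, against 10.7% of all rows. The median log2 fold change of the 26 genes was -0.07, against 0.00 over all rows. It moved to -0.25 without chow replicate 2, to -0.24 in a fit of only the 6 libraries compared and to -0.04 without HFCF replicate 3.

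Cyp2c70, the mouse enzyme that makes muricholic acids, had the largest positive difference at 3 months. It measured 191, 207 and 205 CPM in HFCF livers, against 61.4, 68.0 and 70.7 CPM in chow livers, on 10 to 13 and 2 to 4 counts. The groups lay well apart, but the counts were few and the test did not pass (log2 fold change 1.55 ± 0.63 SE, edgeR adjusted p = 0.225). It passed in 0 of 22 alternatives. At 1 month Cyp2c70 measured 53.2, 18.1 and 111 CPM in HFCF livers and 204, 64.2 and 69.0 CPM in chow livers, with overlap (-0.87 ± 0.60, edgeR adjusted p = 0.641).

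Of the Cyp2d genes on chromosome 15, Cyp2d26 measured 555, 372 and 425 CPM in HFCF livers and 338, 136 and 371 CPM in chow livers at 3 months. The HFCF libraries lay just above the chow libraries (0.66 ± 0.32, edgeR adjusted p = 0.325). At 1 month it measured 355, 272 and 272 CPM in HFCF livers and 255, 273 and 207 CPM in chow livers, and the averaged value was 0.47 ± 0.22 (edgeR adjusted p = 0.281). Cyp2d9 pointed the other way at 3 months, with 689, 517 and 724 CPM in HFCF livers and 1319, 725 and 1026 CPM in chow livers. The highest HFCF library lay next to the lowest chow library (-0.64 ± 0.28, edgeR adjusted p = 0.255). At 1 month Cyp2d9 stood at 0.14 ± 0.25 (edgeR adjusted p = 0.911), and its averaged value was -0.25 ± 0.19 (0.574). Cyp2c37, a Cyp2c gene of chromosome 19, measured 210, 103 and 220 CPM in HFCF livers and 245, 385 and 283 CPM in chow livers at 3 months (-0.75 ± 0.37, edgeR adjusted p = 0.33). At 1 month Cyp2c37 stood at 0.24 ± 0.34 (edgeR adjusted p = 0.879), and its averaged value was -0.26 ± 0.25 (0.71). Near-identical relatives share 35.6% of the 30-base windows of Cyp2d9, 48.4% of Cyp2c37 and 15.4% of Cyp2d26. The counts of these genes may therefore be split or pooled among paralogs. Exons of Cyp2d9 and Cyp2d10 also hold an annotated miRNA on the same strand (Gm27622 and Gm27331), neither of which has a row in the table.

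The remaining tested genes of families 1 to 3 were Cyp2a12, Cyp2c54, Cyp2d10, Cyp2d22, Cyp2j5, Cyp3a13 and Cyp3a25. Their log2 fold changes between diets ran from -0.56 to 0.40 at 3 months and from -0.36 to -0.17 at 1 month, and none passed. Cyp3a25, the neighbour of Cyp3a11 on chromosome 5, averaged 666 ± 79.1 CPM in HFCF livers and 843 ± 296 CPM in chow livers at 1 month (SD, n = 3 each). That difference was within the spread (-0.30 ± 0.26, edgeR adjusted p = 0.74). It shares 47.2% of its windows with other genes, mainly Cyp3a59. Whether the diet acted differently on Cyp3a11 and Cyp3a25 was not tested.

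**Figure D3:**
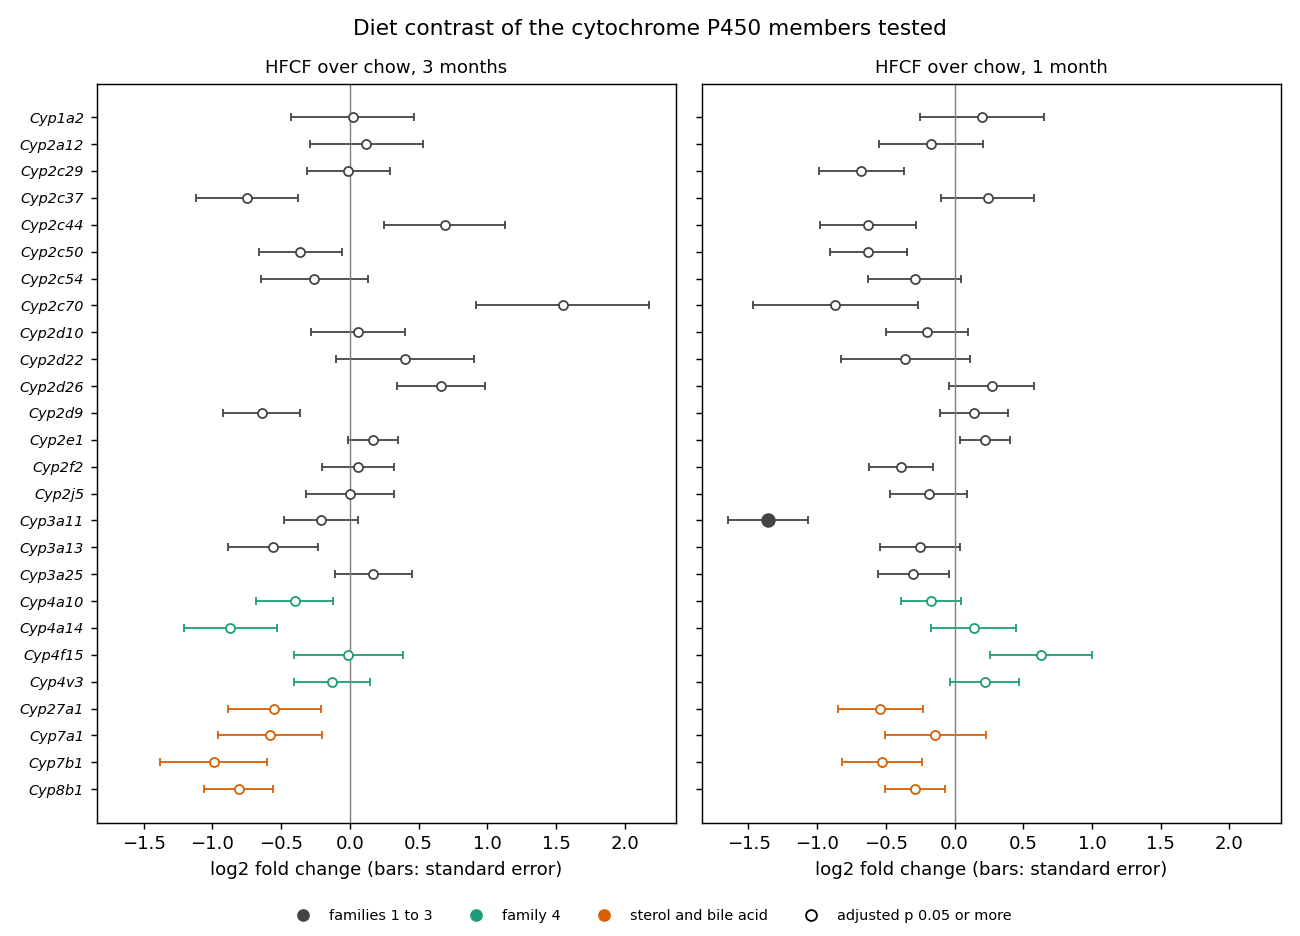
Log2 fold change of HFCF over chow for the 26 genes tested, at 3 months (left) and 1 month (right), with bars for the standard error and colours for the role group. Filled points passed at an adjusted p under 0.05: Cyp3a11 at 1 month is the only one (-1.36). The 4 genes coloured as sterol and bile acid lie below 0 at both times. Cyp2c70, coloured with families 1 to 3, is at 1.55 at 3 months and -0.87 at 1 month.

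The 4 tested genes grouped under sterol and bile acid synthesis were all negative at both times, but 0 of them passed by edgeR at either time. Of all rows 49.4% were negative at 1 month. Cyp7a1 at 1 month changed sign in 2 of 23 alternatives. Cyp2c70, counted with families 1 to 3 though it makes muricholic acids, was not among these 4 genes. As given above, Cyp2c70 stood at 1.55 ± 0.63 at 3 months and -0.87 ± 0.60 at 1 month. Of the 4 genes, Cyp8b1, the hydroxylase that directs bile acid synthesis to cholic acid, was the one that fell when both times were averaged. It lies on the minus strand of chromosome 9 (mm10, 121914356 to 121916305), and 0% of its 30-base windows occur in other transcripts. The 250 bases before its RefSeq start (GRCm38.p6, minus strand, 5′ to 3′, chr9:121916306-121916555) are shown because Cyp8b1 was the bile acid gene with the smallest p. Capitals mark a TATAAA from 31 to 26 bases before the start, and neither hexamer shown for Cyp3a11 occurs in this window on either strand.

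Cyp8b1: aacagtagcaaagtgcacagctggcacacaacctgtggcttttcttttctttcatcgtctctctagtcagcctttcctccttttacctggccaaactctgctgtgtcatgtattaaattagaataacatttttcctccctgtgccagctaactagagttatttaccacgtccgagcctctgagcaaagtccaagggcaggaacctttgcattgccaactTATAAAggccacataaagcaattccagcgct

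Cyp8b1 measured 459, 559 and 488 CPM in HFCF livers, against 890, 907 and 849 CPM in chow livers at 3 months. The groups did not overlap and each was narrow. The difference at 3 months was 1.76-fold (-0.81 ± 0.25, edgeR adjusted p = 0.0721) and passed in 2 of 23 alternatives, with DESeq2 (0.0482) and in a fit of only the 6 libraries compared (0.0227). At 1 month Cyp8b1 measured 603, 816 and 768 CPM in HFCF livers and 937, 770 and 966 CPM in chow livers, with overlap (-0.29 ± 0.22, edgeR adjusted p = 0.704). Averaged over both times it was 1.46-fold lower in HFCF livers (-0.55 ± 0.17, edgeR adjusted p = 0.0413). It did not pass in 16 of 22 alternatives (adjusted p of 0.029 to 0.144 over the 22), among them without any single library other than chow replicate 2 at 1 month.

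Cyp7b1, the oxysterol hydroxylase of the alternative bile acid pathway, measured 268, 186 and 110 CPM in HFCF livers, against 399, 295 and 407 CPM in chow livers at 3 months. All HFCF libraries lay below the chow libraries (-0.99 ± 0.39, edgeR adjusted p = 0.194). At 1 month it measured 230, 598 and 272 CPM in HFCF livers and 693, 417 and 397 CPM in chow livers, and HFCF replicate 2 lay among the chow libraries (-0.53 ± 0.29, edgeR adjusted p = 0.489). With the times averaged it did not pass (-0.76 ± 0.24, edgeR adjusted p = 0.0557), but it passed in 6 of 22 alternatives. Without HFCF replicate 2 at 1 month the value was -1.01 (adjusted p = 0.00698). Among these alternatives were fits without HFCF replicate 1 at 3 months (0.024), without chow replicate 2 (0.0456) or 3 (0.0327) at 1 month, and with limma-voom (0.034).

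Cyp7a1, the rate-limiting enzyme of the classical pathway, measured 478, 517 and 645 CPM in HFCF livers, against 1013, 816 and 690 CPM in chow livers at 3 months. The groups did not overlap, but their nearest libraries were close (-0.58 ± 0.38, edgeR adjusted p = 0.538). At 1 month it measured 213, 417 and 867 CPM in HFCF livers and 306, 642 and 862 CPM in chow livers, a wide spread in both groups (-0.14 ± 0.37, edgeR adjusted p = 0.934). The averaged value was -0.36 ± 0.27 (edgeR adjusted p = 0.582), and -0.73 (0.036) without HFCF replicate 3 at 1 month. Cyp27a1, the mitochondrial sterol hydroxylase that starts the alternative pathway, measured 191, 352 and 205 CPM in HFCF livers and 430, 249 and 407 CPM in chow livers at 3 months (-0.55 ± 0.34, edgeR adjusted p = 0.475). At 1 month it measured 177, 236 and 285 CPM in HFCF livers and 438, 241 and 328 CPM in chow livers (-0.54 ± 0.31, edgeR adjusted p = 0.521). The ranges overlapped at both times, and the averaged value was -0.55 ± 0.23 (edgeR adjusted p = 0.205).

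With both times averaged, 2 of the 26 genes passed, both lower (Cyp3a11 and Cyp8b1), where 4.74% of all rows passed and 2.68% passed as lower. At an unadjusted p under 0.05 there were 6 of 26, against 16.3% of all rows. DESeq2 called 1, Cyp3a11, and limma-voom called 3, Cyp7b1 in addition. The median log2 fold change was -0.55 for the 4 sterol and bile acid genes, -0.08 for the 18 genes of families 1 to 3 and -0.12 for the 4 of family 4, against 0.01 over all rows. Cyp2c70, counted with families 1 to 3, stood at 0.34 ± 0.46 (edgeR adjusted p = 0.814). The levels of hepatocyte markers also differed between diets. Their sum was 104637 to 106833 CPM in HFCF livers and 111537 to 121082 CPM in chow livers at 3 months, and 106578 to 115859 CPM in HFCF livers and 117107 to 164245 CPM in chow livers at 1 month, without overlap at either time. Of the 15 tested markers, 5 fell on average over both times (Tat, Tdo2, Fga, Ahsg and Serpina3k). The part of the hepatocyte signal in the P450 results was not tested.

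In family 4, Cyp4a10 fell with time on both diets and Cyp4a14 fell with time on HFCF, and neither passed between diets. Cyp4a14 and Cyp4a10 hydroxylate the ends of fatty acid chains and are textbook targets of PPAR alpha. They are neighbours on chromosome 4, with 22.1 kb between them, on opposite strands (mm10, Cyp4a14 at 115486200 to 115496142, minus, and Cyp4a10 at 115518264 to 115533649, plus). Cyp4a14 measured 3673, 1696 and 1448 CPM in HFCF livers at 3 months and 7181, 5965 and 7877 CPM in HFCF livers at 1 month. The 3-month libraries all lay below the 1-month libraries, and HFCF replicate 1 at 3 months was the highest of its group. Cyp4a14 was 3.10-fold lower at 3 months (log2 fold change -1.63 ± 0.33 SE, edgeR adjusted p = 0.00921). It no longer passed in 3 of 23 alternatives, without chow replicate 1 (adjusted p = 0.0864), chow replicate 3 (0.0803) or HFCF replicate 1 (0.0956) at 1 month. In chow livers it measured 6321, 2516 and 3696 CPM at 3 months and 6396, 7174 and 5520 CPM at 1 month, with chow replicate 1 at 3 months among the 1-month values (-0.62 ± 0.32, edgeR adjusted p = 0.473).

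In HFCF livers Cyp4a10 measured 670, 434 and 378 CPM at 3 months and 1152, 1179 and 1053 CPM at 1 month, without overlap. The difference was 2.29-fold (-1.19 ± 0.26, edgeR adjusted p = 0.00181), and the call was lost only without HFCF replicate 3 at 3 months (adjusted p = 0.0515). In chow livers it measured 399, 657 and 814 CPM at 3 months and 1477, 995 and 1294 CPM at 1 month, again without overlap. There too it was lower at 3 months (-0.97 ± 0.25, edgeR adjusted p = 0.0349). There it no longer passed in 6 of 23 alternatives, without chow replicate 1 at 1 month (0.144), without chow replicate 1 (0.175), 2 (0.0916) or 3 (0.0754) at 3 months, with library totals (0.0597) and with all rows in 1 fit (0.117). Cyp4a32 and Cyp4a31 share 37.3% and 27.6% of the 30-base windows of Cyp4a10, so its counts may include theirs. For Cyp4a14 the share of windows found elsewhere was 2.26%.

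Between the diets, Cyp4a14 and Cyp4a10 did not pass at either time. The difference of Cyp4a14 at 3 months was -0.87 ± 0.34 (edgeR adjusted p = 0.244), with overlap. It differed with the libraries used and was -1.41 (8.28e-05) without HFCF replicate 1 and -1.14 (0.03) without chow replicate 2 of that time, and -0.47 without chow replicate 1. At 1 month its value was 0.14 ± 0.31 (edgeR adjusted p = 0.924). Cyp4a10 stood at -0.40 ± 0.28 (0.573 by edgeR) at 3 months and -0.17 ± 0.22 (0.873) at 1 month. Cyp4v3, the mouse counterpart of a human fatty acid hydroxylase, averaged 560 ± 58.7 CPM in HFCF livers and 613 ± 161 CPM in chow livers at 3 months, and 646 ± 151 CPM in HFCF livers and 539 ± 170 CPM in chow livers at 1 month (SD, n = 3 each). Cyp4f15, of a subfamily that inactivates leukotrienes, averaged 203 ± 40.0 CPM in HFCF livers and 208 ± 70.2 CPM in chow livers at 3 months, and 217 ± 27.5 CPM in HFCF livers and 139 ± 62.9 CPM in chow livers at 1 month. Neither Cyp4v3 nor Cyp4f15 passed in any comparison. Gm45753, a protein-coding gene with its own row, shares exon positions with Cyp4v3 on the same strand. Counts of Cyp4v3 may therefore include reads of Gm45753.

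In HFCF livers 3 of the 26 genes differed between 3 months and 1 month, where 3.37% of all rows did. Cyp4a10 and Cyp4a14 fell, as did 2.49% of all rows, and Cyp3a11 rose, as did 0.873%. At an unadjusted p under 0.05 there were 9 of 26 genes, against 13.5% of all rows. The times did not overlap for 9 genes, against 17.6% of all rows. Of these 5 were higher at 3 months (Cyp2c29, Cyp2c70, Cyp2d22, Cyp2d26 and Cyp3a11), against 8.23% of all rows, and 4 were lower (Cyp2d9, Cyp4a10, Cyp4a14 and Cyp8b1), against 9.35%. The log2 fold change of Cyp3a11 was 1.37 ± 0.29 (edgeR adjusted p = 0.00457), 2.04 without HFCF replicate 3 at 1 month, and the call was lost only in a fit of the 6 HFCF libraries alone (adjusted p = 0.0721). This comparison uses the same HFCF livers at 1 month as the comparison of diets at that time, so their values for Cyp3a11 are not independent. Cyp2c29 stood at 1.00 ± 0.32 (edgeR adjusted p = 0.0639), Cyp2c70 at 1.57 ± 0.58 (0.14), Cyp7b1 at -0.96 ± 0.37 (0.161), Cyp2d9 at -0.69 ± 0.27 (0.161) and Cyp8b1 at -0.54 ± 0.25 (0.285). Cyp2c29 passed in 5 of 23 alternatives, among them limma-voom (0.0356), a fit of only the 6 HFCF libraries (0.0455), and without HFCF replicate 3 (0.00889) or chow replicate 1 (0.048) at 1 month. Cyp2c70 passed in 2 of 23, with at least 10 counts in every library of 1 group (0.0471) and without HFCF replicate 3 at 1 month (2.39, 0.041). Of the 26 genes limma-voom called 4 and DESeq2 3.

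In chow livers 1 of the 26 genes differed between 3 months and 1 month, Cyp4a10, where 0.748% of all rows did and 0.499% were lower. At an unadjusted p under 0.05 there were 3 of 26 genes, against 12.2% of all rows. For Cyp4a10 and Cyp2c44 every library at 3 months was lower than every library at 1 month, as for 7.98% of all rows, and 16.4% of all rows did not overlap in either direction. Cyp2c44 averaged 121 ± 46.3 CPM at 3 months and 251 ± 8.27 CPM at 1 month (-1.05 ± 0.41, edgeR adjusted p = 0.208), and Cyp2f2 averaged 836 ± 350 CPM at 3 months and 1224 ± 197 CPM at 1 month (-0.59 ± 0.25, 0.253). Cyp2c37 averaged 305 ± 72.4 CPM at 3 months and 200 ± 66.0 CPM at 1 month (0.66 ± 0.34, edgeR adjusted p = 0.439), and Cyp7b1 averaged 367 ± 62.6 CPM at 3 months and 502 ± 165 CPM at 1 month (-0.50 ± 0.31, 0.552). The median log2 fold change of the 26 genes was 0.04 in HFCF livers, against 0.03 over all rows, and -0.01 in chow livers, against 0.02 over all rows. Its sign was not stable, since with 1 library left out it ran from -0.08 to 0.22 in HFCF livers and from -0.14 to 0.13 in chow livers. When libraries were scaled by their totals alone, the median in the chow comparison was 0.0944 for the 26 genes and 0.124 for all rows.

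**Figure D4:**
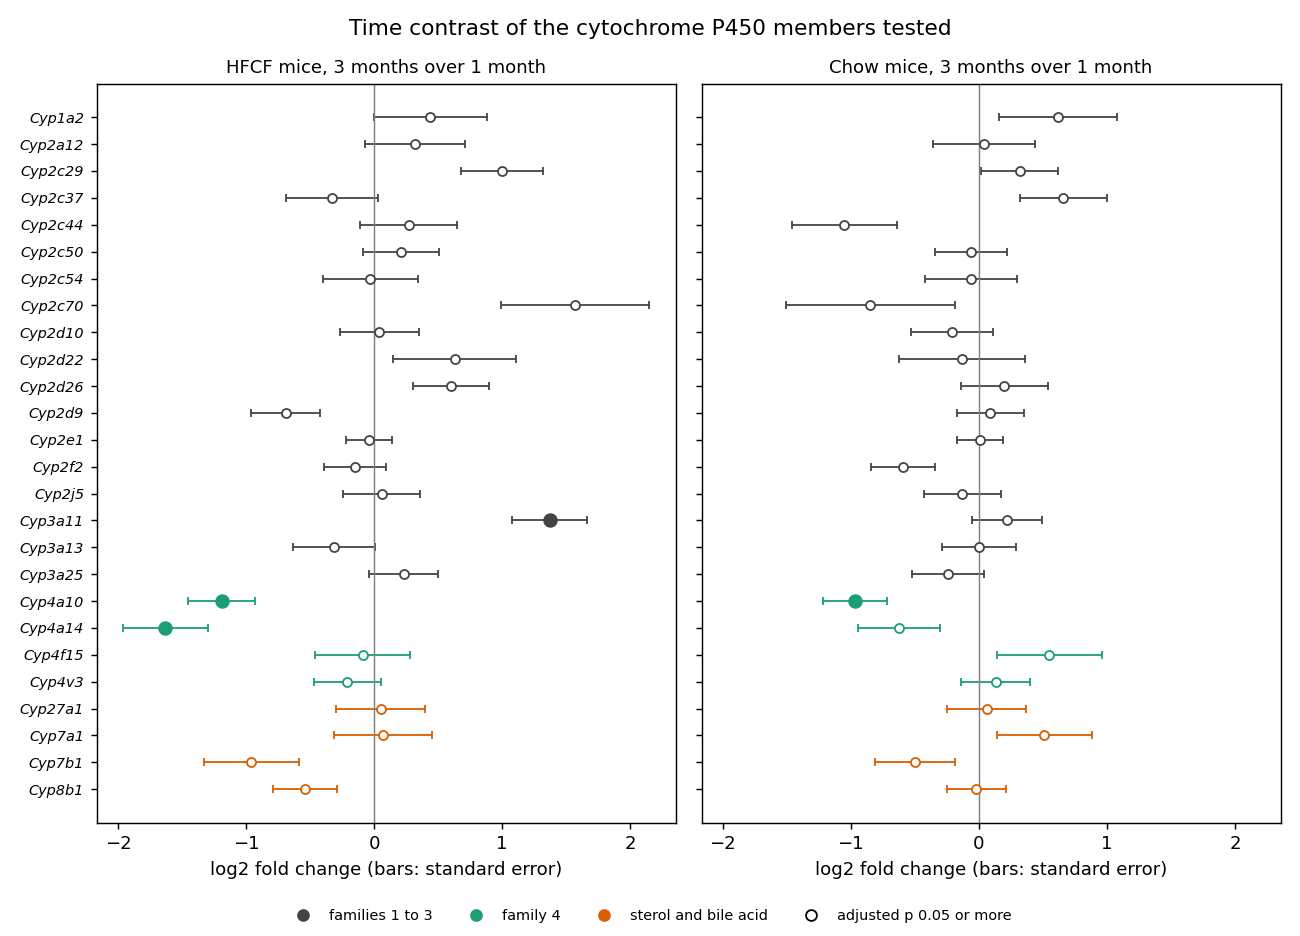
Log2 fold change of 3 months over 1 month for the 26 genes tested, in HFCF mice (left) and chow mice (right), with bars for the standard error and colours for the role group. Filled points passed at an adjusted p under 0.05: Cyp3a11 (1.37), Cyp4a10 (-1.19) and Cyp4a14 (-1.63) in HFCF mice and Cyp4a10 (-0.97) in chow mice.

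Whether the effect of the diet differed between the times was tested directly, as the log2 fold change at 3 months minus that at 1 month. By edgeR 0 of 26 genes passed, and 0.0% of all rows did. There were 5 of 26 at an unadjusted p under 0.05, against 9.41% of all rows. DESeq2 and limma-voom called 0 of the 26. Cyp3a11 had the smallest p, with a difference of 1.15 ± 0.40 (edgeR adjusted p = 0.309). It was 1.84 (adjusted p = 0.000481) without HFCF replicate 3 at 1 month, and adjusted p ran up to 0.74 over 22 alternatives. Cyp2c70 stood at 2.41 ± 0.88 (edgeR adjusted p = 0.309), Cyp2c44 at 1.32 ± 0.56 (0.407), Cyp2d9 at -0.78 ± 0.37 (0.501), Cyp4a14 at -1.01 ± 0.46 (0.507) and Cyp2c37 at -0.99 ± 0.50 (0.53). For Cyp4a14 the value was -1.56 (0.0102) without HFCF replicate 1 at 3 months.

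The 5 genes that did not pass the filter had 0 to 17 counts per library. Cyp4a12a, an arachidonic acid hydroxylase of male mice, averaged 104 ± 44.0 CPM in HFCF livers and 72.1 ± 50.1 CPM in chow livers at 3 months, and 117 ± 60.3 CPM in HFCF livers and 130 ± 37.9 CPM in chow livers at 1 month. Cyp2a5, a coumarin hydroxylase, averaged 74.8 to 98.9 CPM over the 4 groups, and Cyp2j6 46.8 to 108 CPM. Cyp2c38 measured 95.6, 124 and 173 CPM in HFCF livers and 245, 136 and 230 CPM in chow livers at 3 months. In chow livers at 1 month it measured 50.9, 16.0 and 86.2 CPM, and with no filter it passed as higher in chow livers at 3 months than at 1 month. Cyp17a1 had 13 counts in chow replicate 2 at 1 month and 0 to 4 counts in the other 11 libraries. Cyp2b10 and Cyp51 were not analysed here.

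The 31 genes lie on 10 chromosomes, with 8 on chromosome 19 (7 of them Cyp2c genes), 6 on chromosome 4, 4 each on chromosomes 7 and 15, and 3 on chromosome 5. Such clusters go with shared sequence, and 14 of the 31 genes share over 10% of their 30-base windows with other genes. The share was 0% for Cyp8b1, Cyp7b1, Cyp27a1, Cyp2c70, Cyp2c44, Cyp2f2 and Cyp17a1. By this measure counts of these genes are the least exposed to paralogs. Windows shorter than 30 bases were not looked at. Of the 31 genes 22 had an entry in the RefSeq promoter table. In the 250 bases before the start, on either strand, TATAAA occurred in 13 of 22, against 13.0% of 27025 promoters, AGGTCA in 6 of 22, against 13.8%, and AGTTCA in 4 of 22, against 11.9%. These matches are a description of the letters only.

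Among genes that work with P450 enzymes, Alas1 and Ppara rose at 1 month. Alas1, the rate-limiting enzyme of haem synthesis, measured 993, 1179 and 1635 CPM in HFCF livers, against 550, 642 and 742 CPM in chow livers, without overlap. It rose 1.01 ± 0.23 on the log2 scale (edgeR adjusted p = 0.00781). It was the 1 of 3 tested haem genes to pass, where 1.81% of all rows passed, and the median of the 3 was 0.12, against 0.00 over all rows. Ppara, the gene of PPAR alpha, measured 567, 707 and 607 CPM in HFCF livers, against 346, 305 and 155 CPM in chow livers, also without overlap (1.16 ± 0.27, edgeR adjusted p = 0.00781). It was the 1 of 11 tested receptors and regulators to pass, with a median of 0.19. At 3 months neither passed, with Alas1 at 0.58 ± 0.25 (edgeR adjusted p = 0.248) and Ppara at 0.85 ± 0.28 (0.0949). Over both times together both rose (0.80 ± 0.17, edgeR adjusted p = 0.0012, and 1.00 ± 0.20, 0.000295). The PPAR alpha targets Cyp4a10 and Cyp4a14, as given above, did not pass between diets at either time in the main fit. Cyp4a14 passed as lower at 3 months in 3 of 23 alternatives. The link between Ppara and these genes was not tested.

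Por, cytochrome P450 reductase, measured 402, 476 and 236 CPM at 3 months and 691, 707 and 743 CPM at 1 month in HFCF livers. It fell with time on HFCF (-0.97 ± 0.27, edgeR adjusted p = 0.0253), the 1 of 4 tested electron donors to pass there, where 3.37% of all rows did. DESeq2 called 0 of these 4 and limma-voom 1. Between diets 0 of the 4 passed by edgeR at 1 month or at 3 months, with 0 at an unadjusted p under 0.05 and 0 by DESeq2 or limma-voom.

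For the lists that follow, 2.31% of all rows passed and 14.6% had an unadjusted p under 0.05 between diets at 3 months, and 1.81% and 12.0% at 1 month, with a median of 0.00 over all rows at both times. Among drug-handling genes, 0 of 14 genes of glucuronidation passed between diets by edgeR, DESeq2 or limma-voom, with 1 at an unadjusted p under 0.05 at each time and medians of 0.07 at 3 months and -0.07 at 1 month. Of 8 tested genes of glutathione conjugation 1 rose at 3 months, the microsomal transferase Mgst1 (0.68 ± 0.19, edgeR adjusted p = 0.0391). Of 17 genes of other drug oxidation and hydrolysis 1 rose at each time, the fatty aldehyde dehydrogenase Aldh3a2. It averaged 1423 ± 226 CPM in HFCF livers and 703 ± 305 CPM in chow livers at 3 months (1.04 ± 0.27, edgeR adjusted p = 0.0161), and 993 ± 346 CPM in HFCF livers and 476 ± 106 CPM in chow livers at 1 month (1.04 ± 0.27, 0.0196). DESeq2 called 1 of the 17 at 3 months and 0 at 1 month. The medians of these lists at 3 months were -0.16 and 0.09. Of 3 genes of sulfation 0 passed between diets by edgeR, DESeq2 or limma-voom, with 1 at an unadjusted p under 0.05 at 3 months and 0 at 1 month, and medians of -0.43 and -0.39.

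Of 18 other genes of bile acid synthesis and transport, 1 rose and 1 fell at 3 months (2.31% of all rows passed), and 1 fell at 1 month (1.81% of all rows). Slco1a4, an uptake carrier for bile acids and organic anions and a known target of the pregnane X receptor, was the one that fell at both. It measured 172, 62.1 and 189 CPM in HFCF livers and 276, 476 and 442 CPM in chow livers at 3 months (-1.48 ± 0.40, edgeR adjusted p = 0.0238). At 1 month it measured 230, 54.4 and 186 CPM in HFCF livers and 387, 690 and 310 CPM in chow livers (-1.50 ± 0.35, edgeR adjusted p = 0.00781). The HFCF libraries lay below the chow libraries at both times. Akr1c6, a hydroxysteroid dehydrogenase, rose at 3 months (1.07 ± 0.30, edgeR adjusted p = 0.0315). The median of the 18 was 0.02 at 3 months and 0.06 at 1 month.

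P450 genes are unevenly spread across the liver lobule, and several are higher in male mice, so genes known for zone and sex were counted as well. Of 13 tested periportal genes 3 fell at 3 months, where 2.31% of all rows passed, the urea cycle genes Cps1 (-1.46 ± 0.20, edgeR adjusted p = 2.97e-07) and Arg1 (-0.91 ± 0.23, 0.0134) and the histidine-degrading Hal (-1.60 ± 0.32, 0.000867). The median of the 13 was -0.48. At 1 month edgeR and DESeq2 called 0 of the 13 and limma-voom 1, while 6 had an unadjusted p under 0.05, against 12.0% of all rows, and the median was -0.50. Of 8 tested pericentral genes 1 rose, the glutamine synthetase gene Glul (1.02 ± 0.25, edgeR adjusted p = 0.0104), with a median of 0.62. At 1 month 0 of the 8 passed by edgeR, DESeq2 or limma-voom, with 3 at an unadjusted p under 0.05 and a median of 0.33. Of 13 tested male-biased genes 1 fell, Serpina1e (-1.91 ± 0.32, edgeR adjusted p = 0.000473), with a median of -0.64. It was also the 1 that fell at 1 month (-1.15 ± 0.27, edgeR adjusted p = 0.0156), where the median was 0.12. Of 9 acute phase genes 1 fell at 3 months, Serpina3n (-1.10 ± 0.30, edgeR adjusted p = 0.0229). In HFCF livers between times 5 of 13 periportal genes fell (Arg1, Asl, Cps1, Hal and Pck1), and 4 of 13 male-biased genes (Mup17, Mup3, Serpina1e and Slco1a1). Of all rows 2.49% fell there. Of 8 pericentral genes 1 rose, Rgn, as did 0.873% of all rows. DESeq2 called 5, 3 and 0 genes of these lists. In chow livers between times edgeR called 0 genes of these lists. The part of these zone, sex and acute phase differences in the P450 results was not tested.

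Markers of other cell types had low sums. Macrophage markers (6 of 20 with a row) summed to 459 to 1023 CPM in HFCF livers and 336 to 544 CPM in chow livers at 3 months, and to 272 to 671 CPM in HFCF livers and 431 to 546 CPM in chow livers at 1 month. Stellate cell and fibroblast markers (5 of 12) summed to 1870 to 2974 CPM in HFCF livers, against 915 to 1742 CPM in chow livers at 1 month, where the drop of Cyp3a11 was seen. Both tested markers of that list, Dcn (1.02 ± 0.24, edgeR adjusted p = 0.00787) and Reln (1.01 ± 0.28, 0.0456), rose at that time by edgeR. Of all rows 1.81% passed there, and DESeq2 and limma-voom each called 1 of the 2. Dcn and Reln averaged 1063 and 1188 CPM in HFCF livers and 529 and 588 CPM in chow livers at 1 month. They made up most of the sums, so the sums and the calls are not separate results. HFCF replicate 3, the library with the highest Cyp3a11 of its group, had the lowest of the HFCF sums. The part of these cells in the drop of Cyp3a11 was not tested. At 3 months the sums were 1542 to 1862 CPM in HFCF livers and 1534 to 1645 CPM in chow livers. Endothelial markers (7 of 12) summed to 706 to 1179 CPM over all 12 libraries, cholangiocyte markers (2 of 8) to 106 to 345 CPM and red cell markers (1 of 5, Alas2) to 49.5 to 142 CPM. Lymphocyte and pancreas markers had 0 rows.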

How the data were processed

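Liver RNA of 12 mice was sequenced, with 3 libraries in each of 4 groups set by the labels. The deposited table holds raw read counts and FPKM for each gene, per the file headers. The authors' FPKM values were read but entered no test. Per the submitters' processing notes the genome build was mm10. Neither the aligner nor the counting tool, nor its strand setting, is stated in these sources. The labels' protocols name a small RNA library kit and the design text a stranded total RNA kit, and this was not settled. Every row of the table had at least 10 counts in some library.

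Biotypes came from GENCODE M21 (3617 IDs matched, 46 more by symbol). Of 2977 protein-coding rows, 70 whose exons overlap a small RNA row of the table were left out; small RNAs annotated without a row there were not considered. The library size was the sum over the 2907 rows kept. With edgeR 4.0.16 in R 4.3.3, filterByExpr by group kept 1604 rows. TMM scaling and the robust quasi-likelihood test followed, in 1 fit over 12 libraries with 1 mean per group. Each standard error is the size of the log2 fold change over the root of its F statistic. Alternatives used DESeq2 1.42.0, limma 3.58.1 (voom), other scalings, filters and row sets, a replicate block, and each library left out.

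The genes and all lists were chosen with earlier results of these data known. Full statistics were given for genes called between diets or times, for the 6 smallest p-values in comparisons with fewer calls, and for a fixed set (Cyp1a2, Cyp2c29, Cyp2e1, Cyp3a11, Cyp4a10, Cyp4a14, Cyp7a1, Cyp7b1, Cyp8b1, Cyp27a1). From each other list except hepatocyte markers, up to 3 called genes with the largest changes were named between diets at each time. For the average over both times and between times, called genes were named for some lists only. Counting error is largest for genes with few counts.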

Additional observations from a re-analysis of the deposited data

How the results depend on the processing

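Of the P450 results, the drop of Cyp3a11 at 1 month kept its call in all 23 alternatives. For HFCF against chow at 3 months the number of P450 genes called was 1 with DESeq2 and 1 in a fit of only the libraries compared (Cyp8b1 in both), and 0 to 1 with a library left out. Averaged over both times it was 1 (Cyp3a11) with library totals, DESeq2, no filter, all rows of the table or rows overlapping a small RNA kept, and 1 to 3 with a library left out. For 3 months against 1 month it was 2 to 5 in HFCF livers with a library left out. In chow livers it was 0 with library totals or all rows of the table, 2 with no filter, and 0 to 2 with a library left out. For the difference of the diet effect it was 0 to 1 with a library left out.

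The number of all rows called at 1 month was 17 with DESeq2, 11 with all rows of the table and 12 to 38 with a library left out, against 29. At 3 months it was 63 with all rows of the table, 67 with only the libraries compared and 15 to 48 with a library left out, against 37. Averaged over both times it ran from 51 to 84 with a library left out, against 76. In HFCF livers between times it ran from 24 to 76, against 54. In chow livers between times it was 23 with library totals, 31 with limma-voom, 32 with only the libraries compared and 3 to 61 with a library left out, against 12. For the difference of the diet effect it was 1 with limma-voom, 2 with all rows of the table and 0 to 7 with a library left out, against 0. The causes were not tested.

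Values near 0 changed sign. Cyp2c29 at 3 months was -0.01, and 0.02 with limma-voom and 0.03 with all rows of the table, and ran from -0.20 to 0.13 over all alternatives. Cyp1a2 at 3 months was 0.02 and -0.01 with no filter, and ran from -0.19 to 0.32. With a library left out, Cyp1a2 ran from -0.08 to 0.57 at 1 month and from -0.03 to 0.29 averaged over both times, and Cyp7a1 from -0.87 to 0.21 at 1 month.

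Whether the numbers of the replicates pair the libraries could not be settled. Same-numbered libraries had correlations of -0.0504 to 0.102 in their deviations from the group means, and 1 of 18 pairs was over 0.1. Differently numbered libraries were not correlated for reference, and counting error in rows with few counts lowers such correlations. A pairing or a shared batch is therefore not excluded. With a replicate block the number of P450 genes called at 3 months was 1 (Cyp4a14, -0.89, adjusted p = 0.00806), Cyp7b1 passed averaged over both times (adjusted p = 0.0437) and Cyp2c29 between times in HFCF livers (0.0413), and the number of all rows called for the difference of the diet effect was 4. In that fit Cyp2c29 at 3 months was 0.02.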
